A study of Mus musculus with 44 samples.

Results

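Open chromatin of the tumor source GTS2 was compared with that of GTML3 cells given DMSO. Each source had 2 ATAC-seq libraries, so the comparison takes in 4 of the 44 samples of a mouse medulloblastoma series; they were picked by their labels and by no measured value. GTS2 is labelled as a GTS medulloblastoma tumor and its treatment field lists none, whereas GTML3 is labelled as a GTML medulloblastoma tumor and received DMSO, the solvent of the doxycycline arm. Source and solvent therefore cannot be told apart. GTML tumors carry a MYCN transgene under tetracycline control that is driven from the promoter of Glt1, the gene listed as Slc1a2, so the transgene is switched on in cells that use that promoter. The alleles of the GTS mice are not given in the sources used here. Each name stands for a single tumor source, and the 2 libraries of a source count as 1 sample measured 2 times. In every such pair the read counts scattered to the same degree, with a chi-square per degree of freedom of 1.85 to 1.93. The tests below compare these libraries and say nothing about how GTS tumors in general differ from GTML tumors. Values of a second GTS source, GTS1, and of preGTS1 under DMSO come from the same table and are given beside those of GTS2 and GTML3.

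ATAC-seq cuts DNA where nucleosomes leave it exposed, so a region that collects many reads is open, as at active promoters and enhancers. Medulloblastoma is a tumor of the cerebellum, and Group 3 tumors of this kind are known for MYC and for photoreceptor genes that are under the control of the homeobox factors OTX2 and CRX. SOX9 is a transcription factor of glia and of neural stem cells. Tuft cells are chemosensory epithelial cells that depend on POU2F3 and use a taste-like signalling chain with TRPM5 and PLCB2. The table holds 88981 regions and gives each library's value in CPM, its reads scaled to its own depth. The recovered depth was 1185496 and 1657510 reads in GTS2, against 1748074 and 1670694 reads in GTML3 under DMSO. At that depth 1 read was worth 0.844 and 0.603 CPM in GTS2, and 0.572 and 0.599 CPM in GTML3. No read fell in 30.7% and 24.0% of regions in GTS2, against 16.8% and 17.7% in GTML3. The share of reads inside promoter regions, which lie up to 1 kb from a gene start, was 55.7% in both GTS2 libraries and 54.5% and 54.8% in GTML3.

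The promoters below belong to genes on which the results turn. Each is the RefSeq window on GRCm38.p6 that runs from 250 bases before the gene start to 50 bases after it, read along the gene's own strand. The submitters' processing notes name both mm9 and mm10, and the deposited coordinates lie away from these windows for 6 of the 7 genes shown, so windows were matched to genes by name only. Of 13144 genes with a promoter region in the table, 10333 had such a window by symbol or synonym. At 78.6% this fell short of 80%, so a comparison of letters over the whole set was void, and single promoters are shown in its place. The first set holds promoters of photoreceptor genes that were less open in GTS2. Their capitals mark GGATTA, the reverse strand of TAATCC, the core to which CRX and OTX2 are known to bind. The marking was chosen after the windows were seen.
Gnat2, chr3:108092816-108093115, plus strand: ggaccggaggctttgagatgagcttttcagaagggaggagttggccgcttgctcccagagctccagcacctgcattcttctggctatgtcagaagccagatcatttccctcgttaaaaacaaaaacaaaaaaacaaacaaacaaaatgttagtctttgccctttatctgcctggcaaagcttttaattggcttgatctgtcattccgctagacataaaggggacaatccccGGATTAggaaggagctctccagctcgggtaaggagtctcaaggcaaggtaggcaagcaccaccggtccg
Rbp3, chr14:33953753-33954052, plus strand: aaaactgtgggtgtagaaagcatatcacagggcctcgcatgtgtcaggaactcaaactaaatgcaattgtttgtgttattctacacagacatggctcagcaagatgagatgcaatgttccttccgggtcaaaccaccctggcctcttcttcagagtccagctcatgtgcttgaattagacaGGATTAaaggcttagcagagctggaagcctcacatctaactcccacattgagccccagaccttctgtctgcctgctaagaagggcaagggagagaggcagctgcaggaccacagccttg
Abca4, chr3:122044210-122044509, plus strand: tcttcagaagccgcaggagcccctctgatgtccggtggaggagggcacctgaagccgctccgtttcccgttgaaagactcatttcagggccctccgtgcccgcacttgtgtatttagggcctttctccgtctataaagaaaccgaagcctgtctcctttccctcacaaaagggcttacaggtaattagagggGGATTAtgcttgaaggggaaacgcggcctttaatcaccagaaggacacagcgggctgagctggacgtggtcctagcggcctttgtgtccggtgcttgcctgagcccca
TAATCC, searched on both strands, was present in 7.16% of all 27025 RefSeq promoter windows of 300 bases. It was in the windows of 3 of the 4 photoreceptor genes with the largest decreases, and the fourth, Impg2, had none; the windows of the other photoreceptor genes are not reported. The second set shows promoters more open in GTS2, of the tuft cell genes Rgs13 and Hepacam2. The third shows promoters that were closed or nearly so in GTS2, of Irs2 and Sox11. In both sets the capitals mark each CG, the pair of letters that can be methylated.
Rgs13, chr1:144177323-144177622, minus strand: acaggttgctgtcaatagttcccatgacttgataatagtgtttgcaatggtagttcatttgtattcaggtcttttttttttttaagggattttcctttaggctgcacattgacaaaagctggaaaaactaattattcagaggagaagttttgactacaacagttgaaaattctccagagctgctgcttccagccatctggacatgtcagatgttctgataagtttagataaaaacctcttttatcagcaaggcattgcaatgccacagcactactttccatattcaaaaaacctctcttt
Hepacam2, chr6:3494449-3494748, minus strand: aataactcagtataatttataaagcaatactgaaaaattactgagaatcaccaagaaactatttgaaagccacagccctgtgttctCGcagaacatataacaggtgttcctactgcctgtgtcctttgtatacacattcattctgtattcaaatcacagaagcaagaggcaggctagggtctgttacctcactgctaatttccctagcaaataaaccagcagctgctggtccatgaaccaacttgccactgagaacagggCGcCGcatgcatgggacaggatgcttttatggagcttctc
Irs2, chr8:11008880-11009179, minus strand: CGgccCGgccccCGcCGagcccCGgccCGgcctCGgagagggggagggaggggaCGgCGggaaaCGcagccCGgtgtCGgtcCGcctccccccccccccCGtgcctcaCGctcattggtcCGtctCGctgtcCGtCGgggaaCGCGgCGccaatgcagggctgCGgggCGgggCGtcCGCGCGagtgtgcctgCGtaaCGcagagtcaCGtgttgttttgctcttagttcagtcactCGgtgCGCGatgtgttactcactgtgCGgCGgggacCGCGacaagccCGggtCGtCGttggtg
Sox11, chr12:27342669-27342968, minus strand: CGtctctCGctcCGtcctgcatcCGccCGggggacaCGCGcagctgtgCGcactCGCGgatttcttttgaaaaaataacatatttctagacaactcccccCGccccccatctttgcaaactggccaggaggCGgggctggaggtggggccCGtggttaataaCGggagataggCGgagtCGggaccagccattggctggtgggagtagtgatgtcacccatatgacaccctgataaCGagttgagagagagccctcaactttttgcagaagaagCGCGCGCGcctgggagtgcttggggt
These windows held 0 CG in Rgs13, 3 in Hepacam2, 41 in Irs2 and 21 in Sox11, where the median over all windows was 7. Few CG was no common trait of these tuft promoters, since that of Cadps2 held 54. Neither TAATCC nor the octamer ATGCAAAT, a POU factor site present in 1.75% of all windows, was in the windows of the 4 tuft genes with the largest increases, Hepacam2, Cadps2, Ltc4s and Rgs13.

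GTS2 and GTML3 differed at a large share of all regions. A moderated test (limma on log2 of CPM plus 1) called 34967 regions, 39.3% of those tested, at a Benjamini-Hochberg adjusted p under 0.05. Of these, 15267 regions (17.2%) were higher in GTS2 and 19700 (22.1%) were lower. A difference of at least 1 on the log2 scale was also reached by 13835 regions that were higher (15.5%) and by 18479 that were lower (20.8%), and these are called strongly changed below. The balance of directions rests on scaling. As deposited, 43.7% of called regions were higher in GTS2, against 54.8% with each library centred on its median, 54.3% centred within each chromosome, 53.4% by DESeq2, 48.6% by edgeR and 48.4% with quantile normalization. The median log2 difference of all regions was -0.23. It was -0.35 with 0.25 added to CPM in place of 1, and -0.1 with 4 added. It is therefore no fixed zero, and small differences depend on such choices.

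As deposited, promoters and distal regions leaned in different directions. At the 13445 promoter regions, 15.1% of all, 42.6% were called; 3086 (23%) were higher in GTS2 and 2637 (19.6%) were lower. At the 75536 distal regions, 12181 (16.1%) were higher and 17063 (22.6%) were lower. The median log2 difference was 0.06 at promoters and -0.32 at distal regions. Higher regions thus made up 53.9% of called promoters, against 71.8% after centring on library medians, 72.1% within chromosomes, 69.9% by DESeq2, 61.4% by edgeR and 52.2% with quantile normalization. At distal regions the same share was 41.7%, against 51.0%, 50.4%, 49.3%, 45.7% and 47.7% in the same order.

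**Figure D1:**
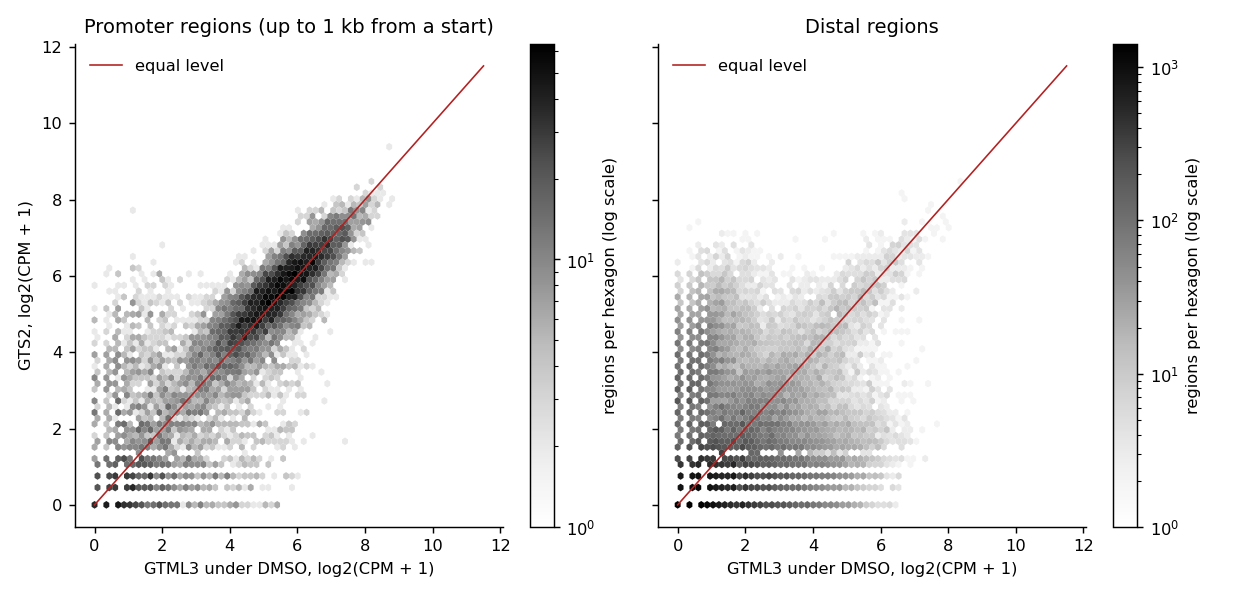
Openness of regions in GTS2 (vertical) against GTML3 under DMSO (horizontal), each as log2(CPM + 1) from the pooled reads of 2 libraries. Promoter regions and distal regions are in separate panels, with shading for the number of regions. The red line marks equal values; distal regions form a cloud along the horizontal axis, open in GTML3 and near 0 in GTS2, and another along the vertical axis.

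The typical strongly changed region was open in one source and close to the depth limit in the other, though some were open in both. Those higher in GTS2 had a median of 13.4 CPM in GTS2 and 0.878 CPM in GTML3, with 1.48 CPM in GTS1 and 0.963 CPM in preGTS1 under DMSO. Those lower in GTS2 had a median of 0.703 CPM in GTS2 and 8.48 CPM in GTML3, with 2.63 CPM in GTS1 and 9.15 CPM in preGTS1. The first kind was narrower, with a median width of 427 bases, against 619 bases in the second and 474 bases over all regions. Promoter regions were 13.5% of the first kind and 9.12% of the second. Over all regions, 471, 42 of them promoters, had no read in either GTS2 library and at least 50 reads in GTML3, and 376 regions, 19 of them promoters, had no read in GTML3 and at least 50 in GTS2. GTS2 also differed from the second GTS source: 34696 regions (39.0%) were called between GTS2 and GTS1, of which 14572 (16.4%) were higher in GTS2 and 20124 (22.6%) lower. Higher regions were 42.0% of these calls as deposited, against 52.4% centred on library medians, 53.3% centred within chromosomes, 47.8% with quantile normalization, 46.4% by DESeq2 and 40.4% by edgeR. This comparison shares the GTS2 libraries with the first, so the values are given side by side only.

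The 10 promoters with the largest increases in GTS2 were led by Fah, Lmo7 and Nalcn. The promoter of Fah, whose enzyme ends tyrosine breakdown, stood at 212 and 217 CPM in GTS2, against 1.14 and 1.20 CPM in GTML3 (chr7:91754122-91755293, coordinates as deposited). Both GTS2 libraries lay far above both GTML3 libraries, with a ratio of 183 (95% counting interval 71.3 to 675), a log2 difference of 6.63 (SE 0.425) and a limma adjusted p of 3.71e-09. GTS1 was at 1.25 and 4.32 CPM. Lmo7, which encodes a LIM domain protein of cell junctions, had 197 and 205 CPM in GTS2, against 0.572 and 1.80 CPM in GTML3 (chr14:102239054-102239937; log2 difference 6.59, adjusted p 5.78e-08). Nalcn encodes the sodium leak channel of neurons; its promoter gave 70.0 and 91.1 CPM in GTS2 and no read in GTML3, at least 93.8-fold higher against a limit of 3 reads over the group (chr14:124025498-124026529). The remaining promoters named by the same rule were those of Arhgef38, 9130230L23Rik, Arap2, Btbd3, Rab40b, Adgrv1 and Gm15908, with log2 differences that lay below that of Nalcn and in each case no overlap between the sources.

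At 8 of these 10 promoters GTS1 stood at or under 5.76 CPM. Arhgef38, a guanine nucleotide exchange factor gene, had 278 and 232 CPM in GTS2, against 2.86 and 2.99 CPM in GTML3. Arap2, whose protein acts on Arf GTPases, had 70.9 and 76.6 CPM in GTS2 and 17.3 and 25.9 CPM in GTS1, against 0 and 0.599 CPM in GTML3. Rab40b, a small GTPase gene, was the exception: it had 68.3 and 68.2 CPM in GTS2 and 47.3 and 42.7 CPM in GTS1, against 0.572 and 0 CPM in GTML3. The other 9 of the 10 promoters were also called between GTS2 and GTS1, in which comparison 26.8% of promoter regions were higher in GTS2 and 21.0% lower, while for Rab40b that adjusted p was 0.284.

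**Figure D2:**
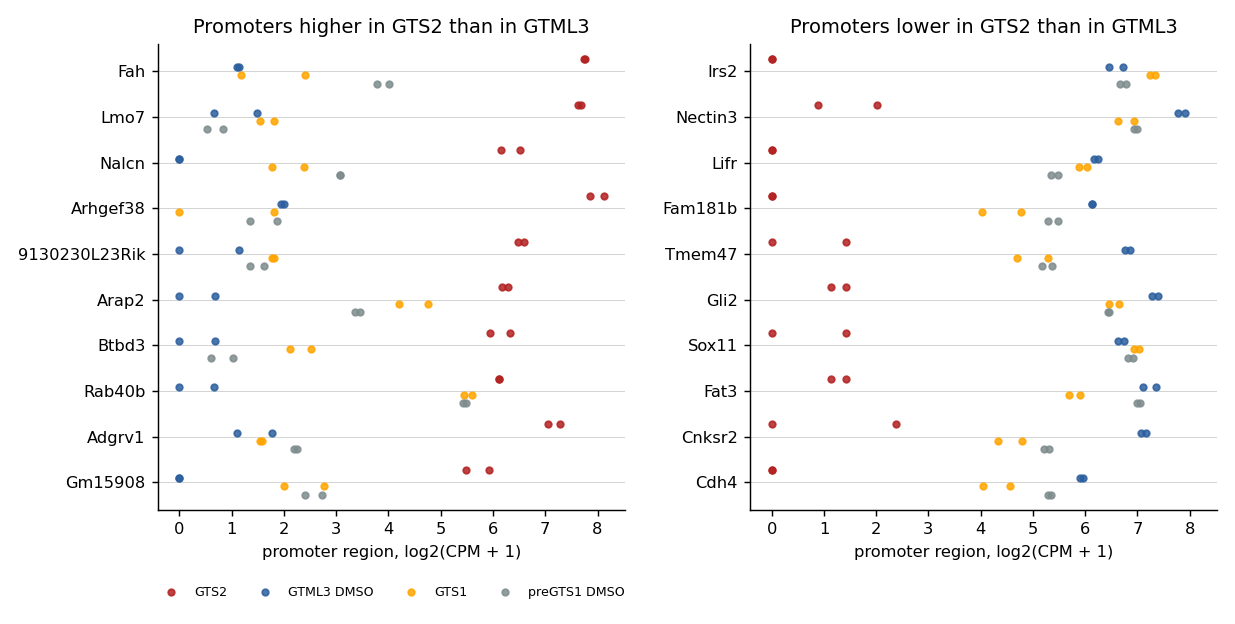
Openness of each library, as log2(CPM + 1), at the 20 promoter regions with the largest differences, for GTS2, GTML3 under DMSO, GTS1 and preGTS1 under DMSO; each point is a library. In all 20 rows both GTS2 points lie clear of both GTML3 points, and at the promoters lower in GTS2 all points of GTS1 and preGTS1 lie above those of GTS2.

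The 10 promoters with the largest decreases in GTS2 were led by Irs2, Nectin3 and Lifr. Irs2 encodes an adaptor of the insulin and IGF receptors, and its promoter, printed above, had no read in either GTS2 library, against 104 and 86.2 CPM in GTML3 (chr8:11008491-11009908 as deposited). That is at least 90.1-fold lower against the limit of 3 reads, with a log2 difference of -6.58 (SE 0.164) and an adjusted p of 4.54e-14. GTS1 had 151 and 161 CPM there, and preGTS1 101 and 109 CPM, so of these 4 sources GTS2 was the one with no read. A second region of Irs2, 2.3 kb from its start, likewise had 0 CPM in both GTS2 libraries, against 29.7 and 19.8 CPM in GTML3; this region was picked after its values were seen. Lifr, the receptor gene for leukemia inhibitory factor, had 0 CPM in both GTS2 libraries, against 74.4 and 71.2 CPM in GTML3, at least 69.0-fold lower (chr15:7078807-7080041). GTS1 kept 58.0 and 64.3 CPM at Lifr.

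Gli2, a main activator of Hedgehog signalling, had 1.69 and 1.21 CPM in GTS2, against 154 and 168 CPM in GTML3 (chr1:120949778-120950975). The ratio of GTML3 to GTS2 was 114 (interval 44.3 to 420), the log2 difference -6.05 (SE 0.181) and the adjusted p 5.22e-13. Sox11, a factor of young neurons whose promoter is printed above, had 1.69 and 0 CPM in GTS2, against 106 and 97.6 CPM in GTML3 (chr12:28026849-28028551; log2 difference -5.97). Both promoters were open in GTS1, with 87.3 and 98.8 CPM at Gli2 and 130 and 121 CPM at Sox11. Nectin3, a cell adhesion gene, had 0.844 and 3.02 CPM in GTS2, against 241 and 218 CPM in GTML3 (chr16:46496408-46498020; log2 difference -6.40). Fam181b, Tmem47, the cadherin genes Fat3 and Cdh4 and the scaffold gene Cnksr2 completed the 10, and all 10 were also called lower in GTS2 than in GTS1.

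Single distal regions reached the same sizes. A region 29086 bases from Serp2 (chr14:76985390-76986229) had 153 and 136 CPM in GTS2 and no read in GTML3, at least 163-fold higher, with an adjusted p of 1.41e-08. The region named for Etv1, an ETS factor gene, had 183 and 162 CPM in GTS2, against 0.572 and 0 CPM in GTML3 (chr12:39573913-39574829; log2 difference 7.11, counting interval of the ratio 104 to 23100). The region named for Gfra2, a receptor gene for GDNF family ligands, had 136 and 125 CPM in GTS2 and none in GTML3, at least 148-fold higher. Regions nearest to Adgrl3, Mir5130, Dpp10, 2310001H17Rik, Fundc1, Elmo1 and Zfp133-ps followed. The last had 178 and 186 CPM in GTS2, 32.0 and 24.9 CPM in GTS1, and 0.572 and 1.20 CPM in GTML3; at the other 9 regions GTS1 stood at or under 5.76 CPM. A nearest gene is given by distance only and need not be the gene that a region acts on.

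Of the distal regions lower in GTS2, the one with the largest difference lay near Mreg. It (chr1:72217374-72218553) had 0 and 1.21 CPM in GTS2, against 156 and 177 CPM in GTML3 (log2 difference -6.81, adjusted p 1.1e-11). At Mir124-2hg, the host of the neuronal microRNA miR-124, a region had 0 and 1.21 CPM in GTS2, against 134 and 155 CPM in GTML3 (chr3:17686188-17687101). A region (chr3:34221325-34222598) lay 237341 bases from Sox2ot, the transcript that overlaps the stem cell gene Sox2. This region had no read in GTS2, against 81.8 and 79.6 CPM in GTML3, at least 76.5-fold lower (log2 difference -6.35, limma adjusted p 2.23e-10). It was nearly closed in GTS1 as well, at 5.5 and 1.92 CPM, and open in preGTS1 at 113 and 122 CPM. The region near Zbtb10 differed from that pattern, with no read in GTS2, 123 and 98.8 CPM in GTS1, and 73.2 and 93.4 CPM in GTML3. Regions nearest to Kif6, Rnf217, Ghitm, Galnt4, Crybg3 and Galnt14 made up the rest.

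Some genes collected many changed regions. Tcf4, an E protein gene of neural development, was nearest to 20 strongly higher regions out of 44, Klf12, a Krüppel-like factor gene, to 19 of 32, and Gpc6, a glypican gene, to 19 of 37. Tenm2, a teneurin of synapse formation, had 20 of 56, Kif16b 20 of 62, Ptprd 19 of 68, Utrn 16 of 37 and Gm3985 15 of 23. At Gpc6, a region 603758 bases from its start had 72.5 and 83.3 CPM in GTS2, against no read in GTML3. On the lower side Tns3, a tensin of cell adhesions, had 28 strongly lower regions out of 56, Celf4, an RNA-binding protein gene of neurons, 26 of 71, and Cacna2d1, a calcium channel subunit gene, 20 of 32. Clvs1 had 23 of 47, Mir218-2 22 of 37, 2810032G03Rik 22 of 49, Sphkap 20 of 32 and Rybp 20 of 56. The Cacna2d1 promoter itself had 4.22 and 1.21 CPM in GTS2, against 148 and 171 CPM in GTML3 (log2 difference -5.56, adjusted p 1.55e-10). Over all regions, 15.5% were strongly higher and 20.8% strongly lower.

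For the gene lists, each gene was given by its most open promoter region. Of 13144 genes with such a region, 3136 (23.9%) were called higher in GTS2 and 2597 (19.8%) lower. A list's counts are read beside those shares. A gene counts only where the table, shared by 12 libraries, lists a promoter region. Genes listed through openness in GTS2 alone would raise the share higher in GTS2, and this was not tested. Since libraries came from whole tumor sources, fewer open cells and less openness per cell cannot be told apart.

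Genes of tuft cells and simple epithelium were the list with the largest share of promoters more open in GTS2. All lists were chosen with earlier results of these data known, so this rank is no independent result. Of 31 genes, 22 had a promoter region, and 18 of them (81.8%) were higher, 3 lower, with a median log2 difference of 2.93. Median levels over the 22 promoters were 21.1 and 20.5 CPM in GTS2, against 1.43 and 1.20 CPM in GTML3. In GTS1 they were 1.88 and 1.44 CPM. With levels this low outside GTS2, the limit on listed genes applies to this list. The count higher stayed at 17 or 18 under the 8 other settings run on the lists. Summed over the 22 promoters, GTS2 had 636 and 639 CPM, against 203 and 205 CPM in GTML3, and GTS1 had 174 and 146 CPM. Between GTS2 and GTS1, 18 of the 22 were higher and 0 lower, where 27.8% of all promoters were higher and 21.3% lower. Distal regions within 100 kb of list genes followed, with 44 of 115 (38.3%) higher and 19 (16.5%) lower, against 17.0% and 22.4% of all such regions.

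The members that were higher included genes of the taste-like signalling chain. Hepacam2, a surface protein gene of tuft cells, had 58.2 and 51.9 CPM in GTS2, against 1.14 and 0 CPM in GTML3 (chr6:3444349-3444845; log2 difference 5.26, SE 0.5, adjusted p 3.69e-07). Cadps2, which primes secretory vesicles, had 58.2 and 61.5 CPM in GTS2, against 1.72 and 1.20 CPM in GTML3 (log2 difference 4.64, adjusted p 1.44e-06), with GTS1 in between at 12.0 and 13.9 CPM. Rgs13, a regulator of G protein signals, had 45.6 and 55.5 CPM in GTS2, against 1.72 and 1.20 CPM in GTML3 (chr1:146024200-146024925; log2 difference 4.39). Ltc4s, the leukotriene C4 synthase gene, had 48.1 and 41.0 CPM in GTS2, against 1.14 and 0.599 CPM in GTML3. The phospholipase gene Plcb2, the ion channel gene Trpm5, the taste receptor gene Tas1r3, the actin-bundling gene Avil and the interleukin 25 receptor gene Il17rb were called higher too, at lower levels; Trpm5 had 12.7 and 18.1 CPM in GTS2, against 1.14 and 0 CPM in GTML3. For every member given here with values, both GTS2 libraries exceeded both GTML3 libraries.

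Other members of the list went the opposite way or had no promoter region. Chat, the acetylcholine synthesis enzyme, had 3.37 and 5.43 CPM in GTS2, against 42.3 and 38.3 CPM in GTML3 (log2 difference -2.96). Dclk1, a kinase gene used as a tuft cell marker and also active in neurons, had 0 and 1.21 CPM in GTS2, against 10.3 and 10.2 CPM in GTML3 (log2 difference -2.92). The third, Sox4, lost its call under some settings. Krt8, Krt18, Krt19 and Pou2f3 were among 9 genes with no promoter region in the table. Each of these 4 had distal regions that were higher. Near Krt18, a keratin gene of simple epithelium, 64.1 and 67.6 CPM in GTS2 stood against 1.14 and 0 CPM in GTML3 at 11225 bases (adjusted p 2.51e-06). Near Krt8, 49.8 and 30.2 CPM in GTS2 stood against 1.14 and 1.80 CPM in GTML3 at 1364 bases. Near Pou2f3, the tuft cell master regulator, 21.1 and 9.65 CPM in GTS2 stood against 2.29 and 0 CPM in GTML3 at 16938 bases (log2 difference 3.08, adjusted p 0.000453). The single region near Krt19, another keratin gene, was weaker, with 6.75 and 3.02 CPM in GTS2 and no read in GTML3 (log2 difference 2.48, adjusted p 0.000138).

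**Figure D3:**
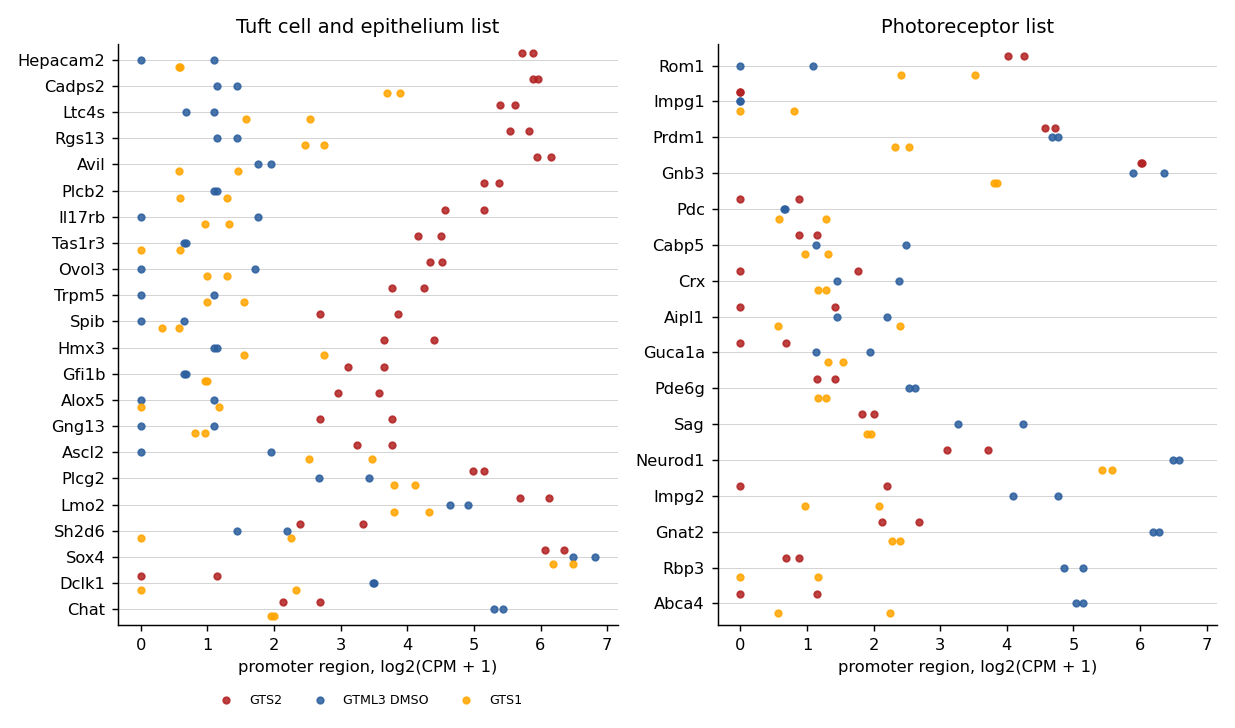
Openness of each library, as log2(CPM + 1), at the promoter region of each tuft cell and simple epithelium gene and of each photoreceptor gene, for GTS2, GTML3 under DMSO and GTS1. Among tuft genes the GTS2 points lie to the right of the GTML3 points except at Chat, Dclk1 and Sox4; among photoreceptor genes GTS2 lies to the left at most called members, and Rom1 is the exception.

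Photoreceptor genes, the mark of Group 3 medulloblastoma, were less open in GTS2. Of 33 genes, 16 had a promoter region, of which 6 were lower and 1 was higher, with a median log2 difference of -1.15. Distal regions were more one-sided: 59 of 142 (41.5%) were lower and 3 (2.11%) higher, against 22.4% and 17.0% of all such regions. The 16 promoters summed to 121 and 139 CPM in GTS2, against 383 and 372 CPM in GTML3, while GTS1 had 95.8 and 85.4 CPM. Abca4, a retinoid transporter of rods and cones, had 0 and 1.21 CPM in GTS2, against 34.3 and 31.7 CPM in GTML3 (chr3:121746538-121747494; log2 difference -4.52, adjusted p 1.63e-06). Rbp3, the retinoid-binding protein between photoreceptors and pigment epithelium, had 0.844 and 0.603 CPM in GTS2, against 34.3 and 28.1 CPM in GTML3 (chr14:34766855-34767405). Gnat2, the transducin of cones, had 3.37 and 5.43 CPM in GTS2, against 77.2 and 72.4 CPM in GTML3 (chr3:107895289-107897678; log2 difference -3.84, adjusted p 5.24e-10). These are the promoters with TAATCC printed above. Impg2, a retinal matrix gene, and Neurod1, a neuronal bHLH factor gene, were the other large decreases, and Neurod1 kept 7.59 and 12.1 CPM in GTS2, against 89.2 and 95.2 CPM in GTML3. The exception, Rom1, an outer segment membrane gene, had 15.2 and 18.1 CPM in GTS2, against 1.14 and 0 CPM in GTML3.

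Regions around the genes of both controlling factors were less open in GTS2; these stretches were chosen after other values were seen. Between Tmem260 and Otx2, 9 of 18 regions were lower and 0 higher, where 22.1% of all regions were lower and 17.2% higher. The 18 summed to 29.5 and 18.7 CPM in GTS2, against 364 and 371 CPM in GTML3. GTS1 had 53 and 47.5 CPM there and preGTS1 608 and 641 CPM. The most open of them in GTML3, 69.2 kb from the Otx2 start, had 1.69 and 2.41 CPM in GTS2, against 114 and 121 CPM in GTML3 (log2 difference -5.29, adjusted p 4.02e-12). At Crx, 4 of 6 regions were lower, and the 6 summed to 1.69 and 3.02 CPM in GTS2, against 49.8 and 61.7 CPM in GTML3. In both loci GTS1 lay near GTS2, with 6.76 and 5.76 CPM at Crx, and preGTS1 lay above GTML3, with 182 CPM in both libraries at Crx. The promoter region of Crx itself was not among the called ones.

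The stretch that leads to Sox9, also chosen after other values were seen, was more open. Of 23 regions from Kcnj2 to Sox9, its promoter included, 19 were higher in GTS2 and 0 lower. Most of these regions had few reads in the other sources given here. Regions listed through openness in GTS2 alone would raise the count higher in GTS2, and this was not tested. Shares over all regions were 17.2% higher and 22.1% lower. The 23 regions summed to 325 and 297 CPM in GTS2, against 42.9 and 60.5 CPM in GTML3. GTS1 had 137 and 136 CPM there, and preGTS1 108 and 116 CPM. Of these sums, the Sox9 promoter alone held 111 and 110 CPM in GTS1 and 88.6 and 93.3 CPM in preGTS1. A region at the Kcnj2 end of the stretch, chr11:110984114-110984665, had 59.0 and 50.7 CPM in GTS2, against 0.572 and 0 CPM in GTML3 (log2 difference 5.47). The Sox9 promoter differed far less: it had 75.9 and 67.6 CPM in GTS2, against 35.5 and 48.5 CPM in GTML3, a log2 difference of 0.77 (SE 0.178, adjusted p 0.00193), and GTS1 was higher still at 111 and 110 CPM.

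**Figure D4:**
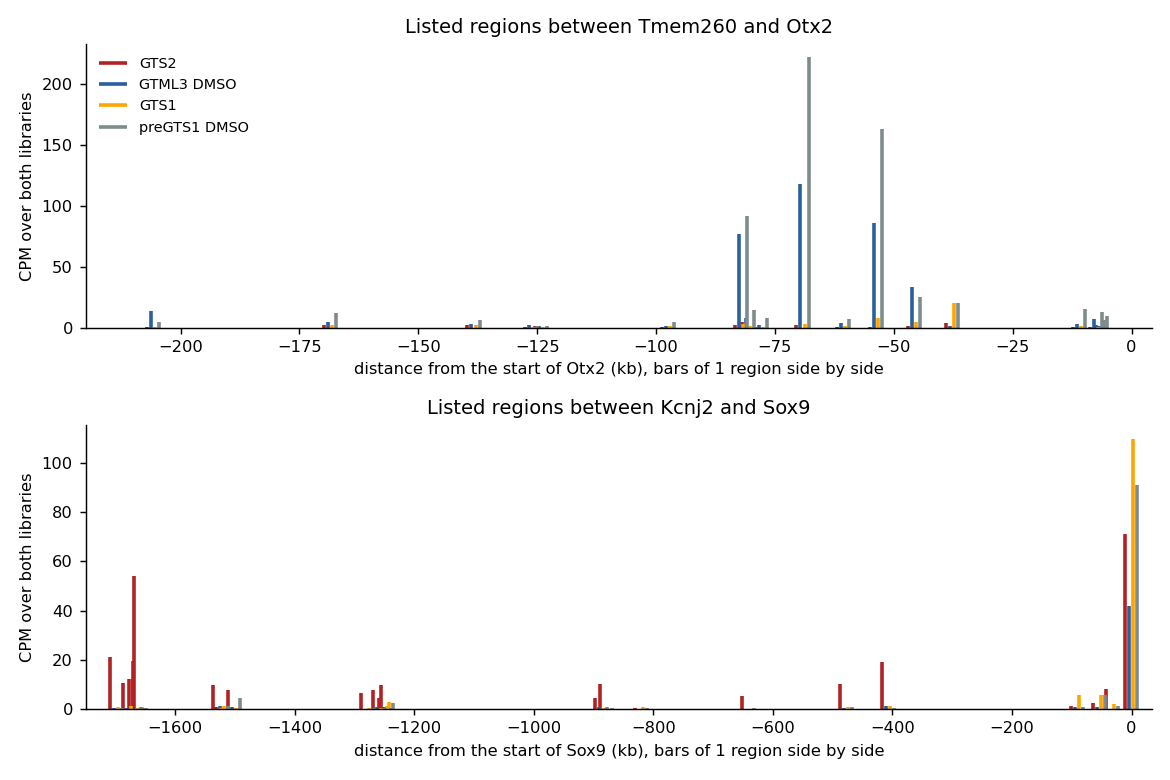
CPM of each region over both libraries (bars) against its distance in kb from the starts of Otx2 and of Sox9, for GTS2, GTML3 under DMSO, GTS1 and preGTS1 under DMSO. On the Tmem260 side of Otx2 the GTS2 and GTS1 bars are close to 0 where GTML3 and preGTS1 have their highest bars; on the way to Sox9 the GTS2 bars are the highest over most of the stretch, and GTS1 is highest at the Sox9 promoter.

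Astroglial genes, to which SOX9 belongs, were split. Of 35 genes, 24 had a promoter region, with 6 higher and 9 lower. Tnc, a matrix protein of glia, had 164 and 136 CPM in GTS2, against 2.29 and 2.39 CPM in GTML3 (chr4:63707680-63708720; log2 difference 5.49, adjusted p 1.05e-09). Id4, an inhibitor of bHLH factors, and Sox2, a factor of neural stem cells, were higher too, and Sox2 had 67.5 and 62.7 CPM in GTS2, against 8.58 and 5.99 CPM in GTML3. In contrast Glul, the glutamine synthetase gene, had 1.69 and 2.41 CPM in GTS2, against 165 and 156 CPM in GTML3 (chr1:155746421-155747970; log2 difference -5.74, adjusted p 4.54e-14). GTS1 had 129 and 143 CPM at Glul. The glutamate transporter gene Slc1a3, the receptor phosphatase gene Ptprz1 and the radial glia gene Fabp7 were lower as well, with log2 differences of -4.67, -3.76 and -3.02.

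Neuronal and progenitor genes that changed were mostly less open. In the neuronal list 14 of 33 promoters were lower and 6 higher. Nhlh1, a bHLH factor of new neurons, had 14.3 and 9.05 CPM in GTS2, against 121 and 112 CPM in GTML3, and Map2, a dendritic microtubule protein, had 2.53 and 2.41 CPM in GTS2, against 30.3 and 36.5 CPM in GTML3. The neurofilament gene Nefl went the other way, with 27.8 and 19.9 CPM in GTS2, against 1.14 and 0 CPM in GTML3 (log2 difference 4.07), as did Nefm. In the list of granule neuron progenitors and Hedgehog signalling 8 of 21 promoters were lower and 2 higher. Besides Gli2, Pax3, a paired box factor gene, had 5.9 and 3.62 CPM in GTS2, against 74.4 and 100 CPM in GTML3. Gli3, a Hedgehog effector that can act as a repressor, was more open, with 59.0 and 66.4 CPM in GTS2, against 4.58 and 1.20 CPM in GTML3 (chr13:15554618-15556318; log2 difference 4.18). Of the rhombic lip genes, 3 of 10 promoters were lower and 0 higher, among them Wls, which carries WNT proteins out of the cell, with 12.7 and 2.41 CPM in GTS2, against 92.7 and 65.2 CPM in GTML3.

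**Figure D5:**
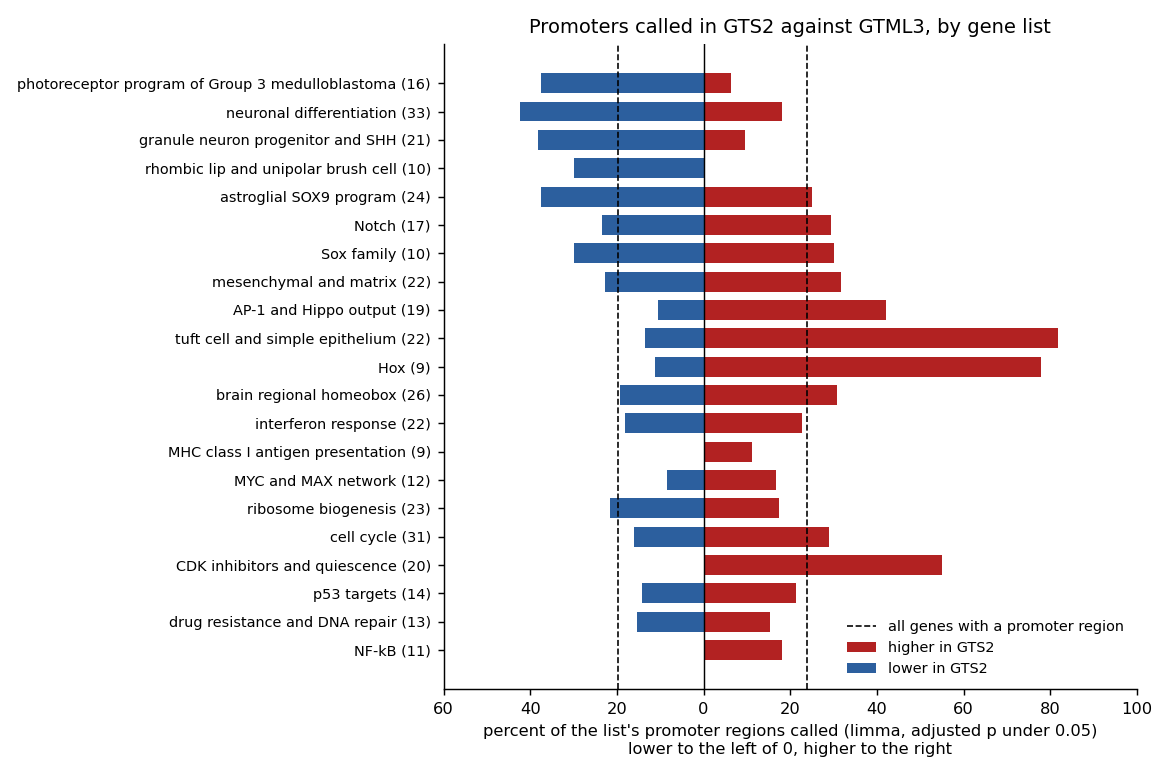
Percent of promoters called lower (left) and higher (right) in GTS2 than in GTML3 for each gene list. Dashed lines mark the shares over all genes, 19.8% lower and 23.9% higher; the tuft cell list reaches 81.8% higher, and the list of CDK inhibitors and quiescence genes 55.0%.

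Homeobox genes changed in both directions. Of 39 Hox genes, 9 had a promoter region, with 7 higher and 1 lower. Median levels were 10.1 and 9.65 CPM in GTS2, against 1.14 and 0.599 CPM in GTML3, so the limit on listed genes applies here too. Hoxa5, a patterning gene of the posterior body, had 38.0 and 33.2 CPM in GTS2, against no read in GTML3, at least 40.1-fold higher, and its neighbours Hoxa3 and Hoxa4 were also higher. Hoxc13 was lower, with a log2 difference of -2.09. Leaving out single libraries moved the Hox count to 5 to 7 higher. Of 26 promoters of brain homeobox genes, 8 were higher and 5 lower. Six2, a factor of kidney and craniofacial progenitors, had 81.0 and 82.7 CPM in GTS2, against 1.14 and 1.20 CPM in GTML3 (log2 difference 5.25), but of 9 regions up to 100 kb from Six2 the promoter was the one that was higher and 6 were lower. Irx2 had 140 and 110 CPM in GTS2, against 3.43 and 2.99 CPM in GTML3, while Irx5 had no read in GTS2 and 34.3 and 32.9 CPM in GTML3, at least 31.9-fold lower. Both belong to the Iroquois family, which patterns the neural plate.

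Genes that hold back the cell cycle were more often open in GTS2 as deposited. Of 20 promoters in that list, 11 (55.0%) were higher and 0 lower, and the count higher ran from 8 to 14 under other settings. Klf4, a factor of quiescence and pluripotency, had 80.1 and 82.7 CPM in GTS2, against 10.9 and 12.0 CPM in GTML3 (log2 difference 2.73). Gas1, a growth arrest gene, had 65.0 and 51.3 CPM in GTS2, against 8.01 and 1.20 CPM in GTML3, and Cdkn1c, which encodes the inhibitor p57, had 13.5 and 15.1 CPM in GTS2, against 1.14 and 0 CPM in GTML3. Cdkn2b, the p15 inhibitor gene, was higher too, with a log2 difference of 2.35. Around Cdkn2a and Cdkn2b, a stretch chosen after other values were seen, 4 of 9 regions were lower and 1 higher. Shares over all regions were 22.1% lower and 17.2% higher. The 9 summed to 39.6 and 41.0 CPM in GTS2, against 187 and 193 CPM in GTML3. Between those genes, a region 157 bases from Gm12610 had 13.5 and 16.3 CPM in GTS2, against 150 and 154 CPM in GTML3. Genes of the cell cycle itself gave 9 higher and 5 lower of 31 promoters; Pcna, the DNA polymerase clamp, had 181 and 173 CPM in GTS2, against 76.7 and 83.2 CPM in GTML3, and E2f1, an S phase factor, was lower with a log2 difference of -1.09. Ribosome biogenesis genes, known as MYC targets, gave 4 higher and 5 lower of 23 promoters, near the shares over all genes.

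Signalling and matrix lists had changes both ways. Notch genes gave 5 higher and 4 lower of 17 promoters: Nrarp, a feedback inhibitor of the pathway, had 60.7 and 56.1 CPM in GTS2, against 4.0 and 4.19 CPM in GTML3, the receptor gene Notch1 was higher by 2.89 on the log2 scale, and Hey1, a Notch target, was lower by a log2 difference of -1.56. The median of the list had opposite signs before and after centring, at -0.07 and 0.22. The Sox family gave 3 higher, including Sox1 with 49.8 and 58.5 CPM in GTS2, against 1.14 and 1.80 CPM in GTML3, and 3 lower of 10. AP-1 and Hippo genes gave 8 higher and 2 lower of 19. Atf3, a stress-induced AP-1 factor, had 87.7 and 106 CPM in GTS2, against 11.4 and 20.4 CPM in GTML3, and Junb and Fos were higher with log2 differences of 2.14 and 1.66. Yap1, the Hippo co-activator, had 1.69 and 3.62 CPM in GTS2, against 65.2 and 53.9 CPM in GTML3 (log2 difference -4.1). Mesenchymal and matrix genes gave 7 higher and 5 lower of 22; Twist1, a factor of mesenchyme, had 68.3 and 55.5 CPM in GTS2, against 3.43 and 1.80 CPM in GTML3, and the fibronectin gene Fn1 had 10.1 and 3.02 CPM in GTS2, against 75.5 and 75.4 CPM in GTML3.

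The promoters of the remaining lists stayed near the shares over all genes or were few. The interferon list gave 5 higher and 4 lower of 22 promoters, antigen presentation 1 and 0 of 9, p53 targets 3 and 2 of 14, NF-kB 2 and 0 of 11, and drug resistance with DNA repair 2 and 2 of 13. Distal regions leaned lower in 2 of these lists: near p53 targets 18 of 48 (37.5%) were lower and 8 higher, and near interferon genes 16 of 52 (30.8%) were lower and 5 (9.62%) higher, against 22.4% lower and 17.0% higher over all such regions. In the MYC and MAX network 2 of 12 were higher and 1 was lower. Max, the partner of MYC proteins, had 191 and 154 CPM in GTS2, against 80.1 and 80.8 CPM in GTML3 (log2 difference 1.08). The lower member was Myc, with 20.2 and 23.5 CPM in GTS2, against 33.8 and 31.1 CPM in GTML3 (log2 difference -0.55, adjusted p 0.0385), and that call was lost under median-centring, where the difference was -0.27.

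Genes behind the mouse model were looked at one by one. The Mycn promoter had 9.28 and 13.9 CPM in GTS2, against 10.3 and 16.2 CPM in GTML3, values that overlap (log2 difference -0.17, adjusted p 0.738). Around Mycn, 3 of 16 regions were higher and 8 lower, where 17.2% of all regions were higher and 22.1% lower; 3.6 kb from its start GTS2 had no read, against 50.3 and 28.1 CPM in GTML3, and 64.0 kb away GTS2 had 58.2 and 70.6 CPM, against 9.15 and 18.0 CPM in GTML3. At Slc1a2, the gene whose promoter drives the transgene, a region listed 50.2 kb from the start had 1123.6 and 1224.7 CPM in GTS2, against 154 and 165 CPM in GTML3 (log2 difference 2.87, adjusted p 1.86e-12). A neighbour at 48.1 kb had 672 and 632 CPM in GTS2, against 2035.4 and 2004.6 CPM in GTML3 (log2 difference -1.63, adjusted p 2.02e-14). Reads of the transgene and of the gene's own promoter cannot be told apart there. Trp53 had 7.59 and 10.9 CPM in GTS2, against 3.43 and 4.79 CPM in GTML3 (log2 difference 0.99, adjusted p 0.0691), a call made by DESeq2 with a log2 difference of 1.43. Mgmt, which repairs alkylated guanine, had no promoter region, and 3 of its 9 regions were higher, a count too small to set against the share over all regions, among them one 25.5 kb away with 21.1 and 27.1 CPM in GTS2, against 2.29 and 0 CPM in GTML3.

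Markers of other cell types had few promoter regions. Oligodendrocyte genes had 4 of 15, with 2 higher; they summed to 94.5 and 118 CPM in GTS2, against 11.4 and 15.0 CPM in GTML3, through the lineage factor genes Olig1 and Olig2, while Sox10, Mbp and Mog had none. Microglia genes had 3 of 20, with 1 lower, and summed to 6.75 and 8.45 CPM in GTS2, against 26.3 and 32.9 CPM in GTML3; Runx3 was at 0 in GTS2. Endothelial genes had 4 of 14, with 1 higher and 1 lower. They summed to 64.1 and 78.4 CPM in GTS2, against 23.5 and 21.5 CPM in GTML3, mostly through Tek, an angiopoietin receptor gene, at 60.7 and 75.4 CPM in GTS2, against 2.86 and 0 CPM in GTML3. Mural and fibroblast genes had 7 of 12 and summed to 113 and 97.1 CPM in GTS2, against 66.4 and 43.1 CPM in GTML3. Ependymal genes had 6 of 10 and summed to 194 and 216 CPM in GTS2, against 158 and 132 CPM in GTML3, T and NK cell genes had 2 of 11 with 38.8 and 52.5 CPM in GTS2, against 57.8 and 66.4 CPM in GTML3, and erythroid genes had 3 of 10 with 21.9 and 25.3 CPM in GTS2, against 18.3 and 22.7 CPM in GTML3. The part of other cell types in the results above was not tested.

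Differences also ran over long stretches of chromosome. The median log2 difference was -0.55 over 1979 regions of chromosome X, which summed to 23836 and 23914 CPM in GTS2, against 36833 and 36221 CPM in GTML3. The 6 regions of chromosome Y had no read in GTS2, 0.25 and 0.959 CPM in GTS1, 1.77 and 1.93 CPM in preGTS1, and 97.2 and 101 CPM in GTML3, which stood apart. Of 274 windows of 10 Mb, 8 had a median over 0.5 and 51 a median under -0.5. On chromosome 14 the windows from 70 Mb (Serp2, Gfra2), 100 Mb (Lmo7, Mir5130, Klf12) and 120 Mb (Nalcn) had medians of 0.64, 0.81 and 1.11, and those from 30 Mb (Rbp3, Chat, Ghitm) and 40 Mb (Otx2) both had -0.83. The window with Irs2 on chromosome 8 had -0.55 and that with Rab40b on chromosome 11 had 0.55. All 20 promoters named for their size kept their calls after centring within each chromosome. That centring takes out a single median per chromosome in each library, so it leaves differences between windows of a chromosome in place. The part of these windows in the results above was not tested.

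RNA of other tumors gave a separate readout for the same genes. It comes from 6 GTS tumors and 8 GTML tumors, which the column names put in 2 batches, and the labels tie none of them to GTS2. The first batch held 2 GTS and 6 GTML tumors and the second 4 GTS and 2 GTML tumors. With the batch as a term, limma called 9 of 16078 genes (0.056%), 8 of them higher in GTS tumors (0.0498%) and 1 lower (0.00622%). Cadps2 was the single named gene among them. Its log2 CPM ran from 6.65 to 9.68 with a median of 9.12 in GTS tumors, and from 2.53 to 4.43 with a median of 3.29 in GTML tumors. The groups did not overlap, and GTS tumors averaged 8.53 ± 1.28 (SD, n = 6) and GTML tumors 3.38 ± 0.58 (SD, n = 8), a difference of 5.15 (SE 0.540, limma adjusted p 0.00359), with 5.04 within the first batch and 5.29 within the second.

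For other tuft genes with promoters more open in GTS2, the RNA differences given here were larger in the second batch than in the first. None passed the threshold. The RNA difference was 2.51 in the first batch and 7.69 in the second for Hepacam2 (limma adjusted p 0.0739 over both), -0.18 and 9.09 for Rgs13, -0.44 and 6.22 for Trpm5, 0.78 and 6.42 for Plcb2, 0.12 and 5.75 for Avil, and -0.29 and 3.53 for Ltc4s. For Il17rb it was -4.23 in the first batch and 2.48 in the second, -1.07 over both. Of list members with less open promoters, Dclk1 had 0.3 in the first batch and -0.53 in the second, -0.09 over both. Sox4 had -4.22 and -0.04, and -2.25 over both. All 6 GTS tumors lay above all 8 GTML tumors for Hepacam2, from 2.57 to 6.6 log2 CPM in GTS tumors and from -2.94 to 1.82 in GTML tumors. For Otx2, GTS tumors averaged 4.42 ± 3.09 log2 CPM and GTML tumors 7.90 ± 0.94, a difference of -3.48 (limma adjusted p 0.159), with -2.85 and -4.20 within the batches. Crx had -1.95, with -0.05 and -4.09 within the batches. Of other photoreceptor genes, Rbp3 had -2.93, Impg2 -2.62, Neurod1 -1.17, Abca4 -0.96, Gnat2 0.29 and Rom1 1.12. For Sox9, GTS tumors averaged 4.28 ± 1.20 and GTML tumors 2.55 ± 0.97 (SD, n = 6 and 8), a difference of 1.73 (limma adjusted p 0.183). Of the genes named for more open promoters, Arap2 had an RNA difference of 2.38 (limma adjusted p 0.0618), Arhgef38 2.17 and Rab40b 1.85. Lmo7 had 1.36, Fah 1.26, 9130230L23Rik 1.05, Btbd3 0.46, Nalcn 0.04 and Adgrv1 0.0. Of those named for less open promoters, Nectin3 had -2.63, Lifr -2.25, Gli2 -1.54, Sox11 -1.48, Fat3 -0.63 and Tmem47 -0.33. Cnksr2 had -0.17, while Cdh4 and Fam181b had 0.65 and 1.43. Irs2, closed in GTS2, had 5.83 ± 0.47 log2 CPM in the GTS group and 5.91 ± 0.38 in the GTML group, a difference of -0.07, and Gli3, more open in GTS2, had an RNA difference of -2.01. Trp53, with a promoter difference of 0.99, had an RNA difference of -1.24 (limma adjusted p 0.068), and all 6 GTS tumors lay below all 8 GTML tumors. Of genes that hold back the cell cycle, Cdkn2b had an RNA difference of -1.59, Gas1 -1.96, Cdkn2a -1.64, Cdkn1c 0.28 and Klf4 1.18. No RNA difference given here other than that of Cadps2 passed the threshold.

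Across the 11517 genes with both values, the promoter difference between GTS2 and GTML3 and the RNA difference between GTS and GTML tumors had a Pearson correlation of 0.20 and a Spearman correlation of 0.13. Genes are not independent replicates, and no p is given. RNA was higher in GTS tumors for 59.2% of 1509 genes whose promoter was strongly higher in GTS2, for 39.2% of 1316 whose promoter was strongly lower, and for 43.7% of all.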

How the data were processed

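ATAC-seq values were deposited by the authors as CPM, the reads of each region scaled to the library total, for 12 libraries of 6 groups with 2 libraries each. Per the submitters' processing notes, tools named for the series include Bowtie2 2.2, MACS2, STAR 2.4.0, Subread 1.5.2, edgeR and limma, with no role or order given; the builds named are mm9 and mm10, and the build of the table is not given in the sources used here. All CPM values (100.0%) came out as whole reads within 0.1 read, so depth could be recovered and edgeR and DESeq2 were run on those reads as alternatives. A line that names no region held no reads and was left out. RNA of 14 tumors was deposited by the authors as log2 CPM. In a fit of group and batch to these values, 0 genes had a batch coefficient over 1e-10. A batch effect therefore appears to have been taken out before deposit.

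Log2(CPM + 1) of all 12 libraries was fitted with limma 3.58.1 (eBayes with trend and robust, R 4.3.3, two-sided), with Benjamini-Hochberg adjustment over all 88981 regions and a threshold of 0.05. Alternatives used edgeR 4.0.16, DESeq2 1.42.0, other scalings, pseudocounts and filters, and left out each library. Scripts were tested on simulated data. Regions named were the 10 with the largest difference in each direction among distal regions and among promoters, the 8 genes in each direction with the most strongly changed regions, and up to 4 called members of each list in each direction, with further members named after their values were seen. Members and gene lists were chosen with earlier results of these data known. The 2 libraries of a source shared no pairing by number, and p-values measure only the spread between such libraries, which may be technical. Intervals and limits on 0 reads are 95% values for counting error only, and the limit is 3 reads over a group. They treat every read as independent. Read counts scattered more than that between libraries, with a chi-square per degree of freedom of 1.93 in GTS2 and 1.85 in GTML3. The intervals are therefore too narrow and the fold limits too high. The RNA fit carried as a term the number in the column names that is read here as a batch.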

Additional observations from a re-analysis of the deposited data

Results flagged for a closer look

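Single tumors stood apart in the RNA of 9 of 56 named genes, each by Dixon's criterion in a group of 6 GTS or 8 GTML tumors; 112 groups were looked at, so chance would give about 5.6. The values are log2 CPM. In GTS tumors, the highest value was 8.13 for Btbd3 (next 6.18) and 4.88 for Nectin3 (next 2.73). The lowest GTS value was 3.88 for Nalcn (next 5.5), 1.93 for Gpc6 (next 3.59) and 0.16 for Gli3 (next 1.4). In GTML tumors, the highest value was 10.12 for Crx (next 8.11) and 2.91 for Id4 (next 0.9), and the lowest was -7.11 for Rgs13 (next -2.15) and 3.99 for Sox11 (next 6.39).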

How the results depend on the processing

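The directions of the named promoters and distal regions with the largest differences, and their calls, held under the alternatives run. The 34967 called regions between GTS2 and GTML3 were 31475 by edgeR and 29700 by DESeq2, 24662 (promoters 4170, distal 20492) when only the 4 libraries compared were fitted, and 29402 to 30818 with a library of either source left out; promoters ran from 4629 to 4978, distal regions from 24773 to 25840, and GTS2 against GTS1 from 27166 to 31006. Replicate numbers paired no samples (correlations of -0.01 to 0.01), and the fit with replicate number as a block called 34801 regions. Promoter calls were 3811 with eBayes run without trend or robust, against 5723, and tumor RNA calls were 916 without the batch term and 22 with median-centring, against 9. The Mycn promoter difference of -0.17 became 0.11 with median-centring, 0.07 by DESeq2, and -0.47 to 0.13 with single libraries left out (0.10 without GTS2 replicate 1, 0.13 without GTML3 DMSO replicate 2). Centring within chromosomes gave 0.01 at Rbpj and 0.08 at Rfx2, and median-centring gave RNA differences of 0.02 for Irs2, 0.06 for Slc1a2 and 0.02 for Tcf4. The cause was not tested. Of 172 regions recomputed, 35 lost their call under some alternative. Regions with few reads are limited by depth, since 1 read was worth up to 0.844 CPM in GTS2.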
